A study of Mus musculus with 30 samples.

Results

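The Kcn gene family holds the potassium channels, their auxiliary subunits and 1 non-coding RNA that shares the prefix. Its members were taken by symbol: all non-control probes whose gene name begins with Kcn, without Kcne2, which gave 128 probes of 86 genes out of 41174 probes and 28146 gene names on the array. Of these, 111 probes of 80 genes were bright enough to be tested, meaning that, for 1 genotype or more, arrays marked by the scanner software as well above background were not outnumbered by the rest. The remaining 17 Kcn probes were too dim, and 6 of them were well above background on no array. For the 128 probes, 84 (65.6%) were well above background on all 30 arrays, compared with 54.4% of all probes. The question asked of each gene was whether its hypothalamic RNA level differed between mice carrying a human Per3 repeat allele and wild-type (WT) mice. Kcna2, a gene with a known place in sleep research, was of special interest.

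Hypothalamic RNA was measured in 30 mice, 1 single-colour array per mouse, after exposure to alternating periods of 3.5 h light and 3.5 h dark, with brains taken during light period 17. The 7 Boxhill mice were homozygous for a human Per3 exon with 5 repeats (Per3 5/5), and the 8 Coach mice were homozygous for the same exon with 4 repeats (Per3 4/4). The 15 WT mice came from the same conditional lines and had the mouse Per3 gene. All 3 genotypes were on a C57BL/6 background with small contributions from the Bruce4 embryonic stem cells used for targeting. Recombination had been carried out with a ubiquitous PGK-Cre at the ROSA26 locus, and Cre was then bred out, so no mouse expressed it. The study's methods describe the animals as adult males. The arrays fell into 2 runs: Per3 5/5 was measured with WT 1 to 7 (run 1) and Per3 4/4 with WT 8 to 15 (run 2). Each knock-in was therefore compared only with the WT arrays of its own run, and the knock-in genotypes with each other only through the difference between their effects.

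Several arrays stood apart before any comparison was made. Coach 6 and Coach 7 went against the male description on both sex-linked genes examined, Xist and Ddx3y, so results for Per3 4/4 that depend on them are given with and without them. WT 10 had the lowest summed level of hypothalamic neuron markers in run 2, 54.3 times the array's 75th percentile of intensity, compared with 166 to 400 on the other 15 arrays. Its summed level of striatum markers was 136, compared with 19.8 to 52.8, and its sum of cortex and hippocampus markers was 22.5, compared with 5.34 to 18.1. Of the listed hypothalamic neuron genes, 14 were on the array, and all 14 were well above background on every array. WT 14 held a sum of anterior pituitary markers of 1368, against 79.6 or less on the others of its run. The 75th percentile of intensity ranged from 347 to 1546 units, and Coach 5 (347) and WT 15 (490) were the dimmest arrays.

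Potassium channels let potassium leave the cell, or in the case of inward rectifiers hold it near the resting potential, and so set how easily a neuron fires and how quickly it recovers. Voltage-gated channels are assembled from pore-forming subunits, which may be joined by silent subunits that form no channel alone and by auxiliary subunits that alter gating and trafficking. In the brain these channels shape the daily firing rhythm of the circadian clock and the slow oscillations of sleep, and loss of Shaker-type channels shortens sleep in flies and mice.

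No Kcn probe passed an adjusted p of 0.05 in either knock-in or in the difference between them (limma, Benjamini-Hochberg adjustment over 29953 probes). In Per3 5/5 compared with WT, 0 of 111 Kcn probes passed, as did 0 of all probes tested (0.0%), and the lowest adjusted p among Kcn probes was 0.796. At an unadjusted p below 0.05, 4 Kcn probes (3.60%) were counted, compared with 6.17% of all probes. The methods' t-test also passed 0 Kcn probes after adjustment, and before it 10 against 10.4% of all probes. The rank product, a rank-based test with the study's false prediction limit of 0.015, passed 2 Kcn probes, a Kcnh3 probe as lower and a Kcnk5 probe as higher, among 336 of 29823 probes (1.13%). In Per3 4/4 compared with WT, 0 Kcn probes passed against 4 of all probes (0.0134%), and 1 Kcn probe (0.901%) had an unadjusted p below 0.05, compared with 1.73% of all probes. There the t-test counted 0 Kcn probes before and after adjustment (0.985% of all probes before it). The rank product passed 0 Kcn probes in Per3 4/4, compared with 47 of 29823 probes (0.158%). For the difference between the effects, 0 Kcn probes passed (0.0% of all probes), and 1 Kcn probe (0.901%) had an unadjusted p below 0.05, compared with 2.98% of all. No Kcn probe had values that did not overlap between knock-in and WT, whereas this held for 0.174% of all probes in Per3 5/5 and 0.0134% in Per3 4/4. In tissue blocks, fewer cells of a type and less RNA per cell cannot be told apart.

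The changes were small throughout the family. The median log2 fold change of the 111 probes was -0.021 in Per3 5/5 (all probes -0.020), -0.059 in Per3 4/4 (all probes 0.0059) and 0.038 for the difference of the effects (all probes -0.018). Above 0 lay 51 Kcn probes in Per3 5/5 (45.9%, compared with 45.5% of all probes), with 60 below. For Per3 4/4, 43 lay above (38.7%, compared with 51.7% of all probes) and 68 below. The single changes ran from -0.82 (Kcnh3) to 0.71 (Kcnk5) in Per3 5/5. In Per3 4/4 they ran from -0.73 (Kcnq1ot1) to 0.66 (Kcne4), and no change exceeded 1 in size in either knock-in. The Kcnh3, Kcnk5 and Kcne4 probes were dim, as described later. The 95% interval stayed within a fold change of 2 in either direction for 97 probes in Per3 5/5 and for 99 in Per3 4/4, so for the others a change of that size was within the interval. Kcn probes varied more between arrays of a group than probes in general, with a median pooled SD of 0.43 against 0.34 on the log2 scale.

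**Figure D1:**
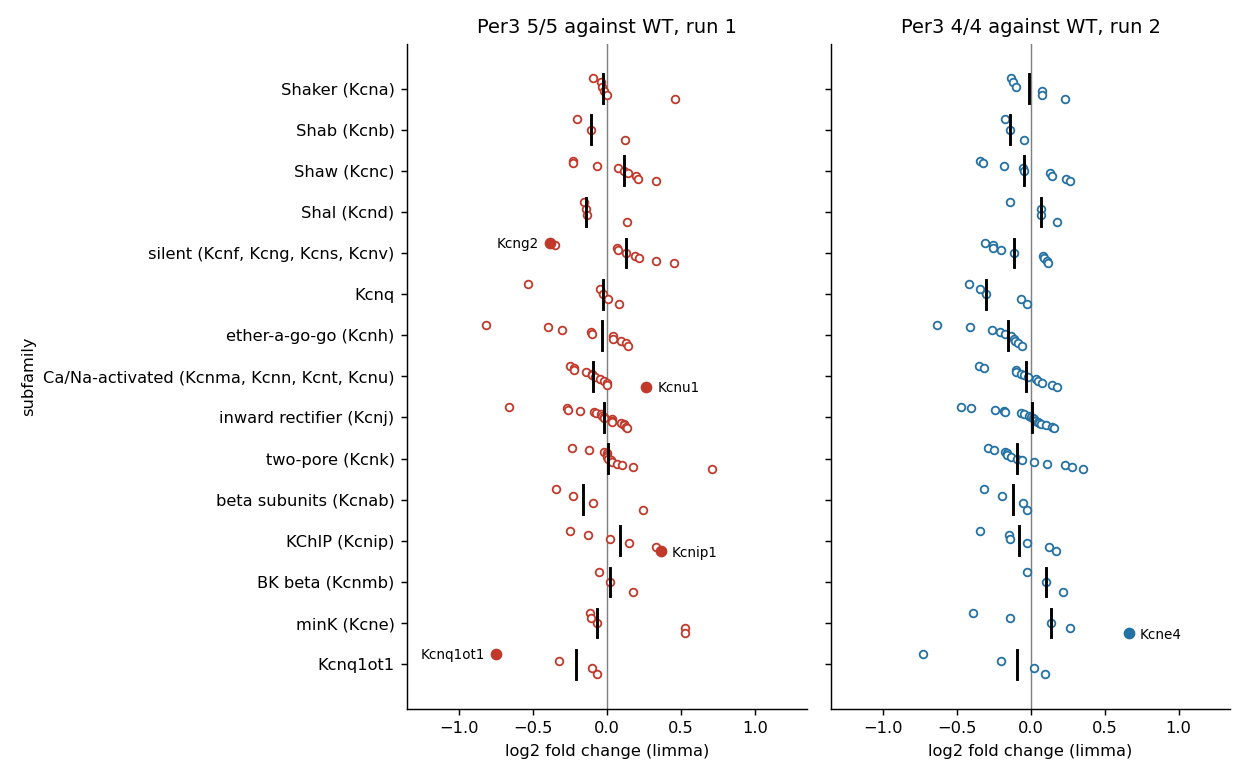
Log2 fold change (x axis, limma) of the 111 tested Kcn probes by subfamily (y axis) in Per3 5/5 (left) and Per3 4/4 (right), each against the WT arrays of its run. Each point is 1 probe, filled and named where the unadjusted p was below 0.05 (4 probes on the left, 1 on the right), and the black bar is the median of the subfamily.

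Kcna2 encodes a Shaker-type delayed rectifier of axons that limits repetitive firing, and it was read by 1 probe on chr3:106908367-106908426 (mm9 build). The probe sequence is shown because every Kcna2 value rests on it; it has 1 reading frame without a stop, and no base is set in capitals.
Kcna2: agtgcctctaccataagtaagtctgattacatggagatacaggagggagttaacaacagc
The level, on the log2 scale relative to the array's 75th percentile, ranged from 0.60 to 1.84 in Per3 5/5, with a median of 1.27, and WT of run 1 spanned 0.13 to 1.76 with a median of 1.52. In run 2 it ranged from -1.18 to -0.09 in Per3 4/4 (median -0.66) and from -1.10 to 0.80 in WT (median -0.52). The groups overlapped in both runs, and 1 WT array in each run lay away from the rest, WT 1 at the bottom of run 1 and WT 8 at the top of run 2.

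**Figure D2:**
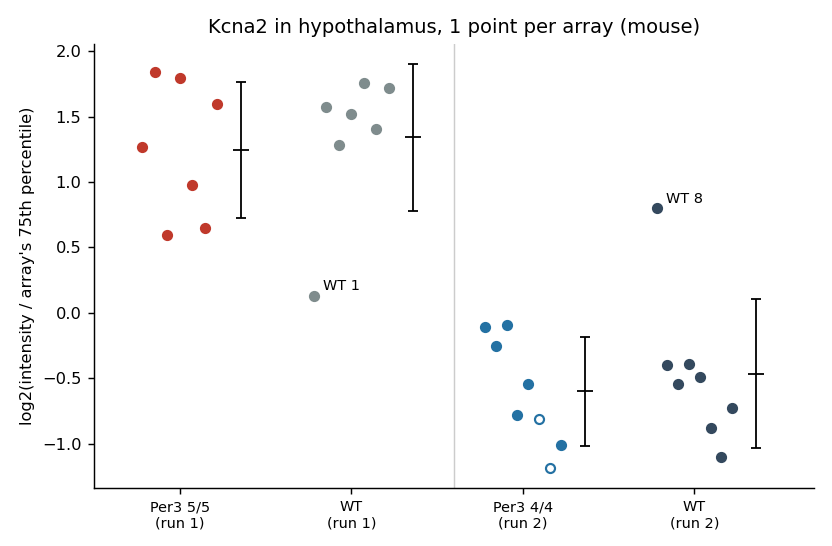
Kcna2 level (y axis, log2 of intensity over the array's 75th percentile) on each of 30 arrays in 4 groups (x axis), with the mean ± SD beside each group and open circles for Coach 6 and 7. The knock-in arrays lay within the range of the WT arrays of their run except for 2 Per3 5/5 arrays above 1.76 and 1 Per3 4/4 array below -1.10, and WT 1 (0.13) and WT 8 (0.80) stood apart.

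The difference from WT was smaller than the spread between arrays in both knock-ins. The log2 fold change of Kcna2 was -0.095 ± 0.27 (SE) in Per3 5/5 (p = 0.725, limma, adjusted p = 0.997; 95% interval -0.64 to 0.45), with 3 of 7 arrays above the WT mean. In Per3 4/4 it was -0.13 ± 0.25 (p = 0.60, limma, adjusted p = 1.00; interval -0.64 to 0.38), with 3 of 8 arrays above the WT mean. The effects differed by 0.038 ± 0.36 (p = 0.919, interval -0.71 to 0.78). The sign rested on single arrays. Leaving out 1 array moved the value in Per3 5/5 from -0.30 (without WT 1, p = 0.239) to 0.014 (without Boxhill 3), and in Per3 4/4 from -0.22 (without WT 14) to 0.049 (without WT 8). Without Coach 6 and 7 the Per3 4/4 value was 0.0011. Within the 4 slides of run 1 the difference ran from -0.98 to 0.27 (below 0 on 3), and within those of run 2 from -0.38 to 0.028 (below 0 on 2). In run 1, slide 3 held Boxhill 3 as its only Per3 5/5 array, and slide 4 held WT 7 as its only WT array.

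The other Shaker channels, which open quickly on depolarisation, gave no unadjusted p below 0.05. Only 1 of the 6 genes lay above 0 in Per3 5/5, Kcna3 at 0.46 ± 0.33 (p = 0.180, limma), and the other 5 lay between -0.095 and -0.0015. Kcna3, a channel best known from lymphocytes, ranged from -5.39 to -4.30 in Per3 5/5 and from -5.76 to -4.89 in WT, so the groups overlapped. Kcna1, the Shaker partner of Kcna2 in axons, was at -0.0015 ± 0.30 in Per3 5/5 and at -0.099 ± 0.28 in Per3 4/4. Of the 6, 3 lay above 0 in Per3 4/4, with Kcna6 the highest at 0.23 ± 0.16.

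The Shab channels are the main delayed rectifiers of neuronal cell bodies. Kcnb2, one of them, was at -0.20 ± 0.23 in Per3 5/5 and at -0.18 ± 0.21 in Per3 4/4. The Shaw channels Kcnc1 to Kcnc4, which permit fast firing and, for Kcnc1 and Kcnc2, contribute to the daily firing rhythm of clock neurons, were read by 9 probes. Of these, 6 lay above 0 in Per3 5/5 and 4 in Per3 4/4. The 3 Kcnc1 probes gave -0.23 ± 0.28, 0.33 ± 0.23 and 0.19 ± 0.22 in Per3 5/5. The 3 Kcnc2 probes gave values of one sign in each knock-in, 0.071, 0.14 and 0.11 in Per3 5/5 and 0.26, 0.14 and 0.24 in Per3 4/4, with standard errors of 0.23 to 0.29. The Shal channels, which carry the A-type current, spanned -0.16 to 0.13 for Per3 5/5, and -0.14 to 0.18 for Per3 4/4, and the Kcnd2 probes gave opposite signs in each knock-in. No probe of these subfamilies had an unadjusted p below 0.05.

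Silent subunits combine with Shab channels and change their gating. Above 0 lay 7 of the 9 probes in Per3 5/5, with a median of 0.12, and in Per3 4/4 4 did, with a median of -0.11. Kcng2 was the silent subunit with the lowest p. Its level ranged from -0.94 to -0.28 in Per3 5/5 (median -0.75) and from -0.75 to 0.03 in WT of run 1 (median -0.12). In run 2 it ranged from -1.06 to -0.22 in Per3 4/4 (median -0.84) and from -1.39 to -0.30 in WT (median -0.66). Thus 6 of 7 Per3 5/5 arrays were below the WT mean, but the groups overlapped. Its log2 fold change was -0.39 ± 0.17 in Per3 5/5 (p = 0.0302, limma, adjusted p = 0.796) and 0.088 ± 0.16 in Per3 4/4, and all 4 slides of run 1 showed the lower level, by values from -0.43 to -0.21. Kcns1 was at 0.45 ± 0.25 in Per3 5/5 (p = 0.0798, limma, adjusted p = 0.802), with 6 of 7 arrays above the WT mean, and at -0.20 ± 0.23 in Per3 4/4. Without Boxhill 3, the highest array for Kcns1, the Per3 5/5 value was 0.28. It was 0.56 with the slide as a block (p = 0.0159, limma) and 0.12 with array weights, which count the more variable arrays less. With the slide as a block, 7 of 111 Kcn probes had an unadjusted p below 0.05, compared with 13.4% of all probes.

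**Figure D3:**
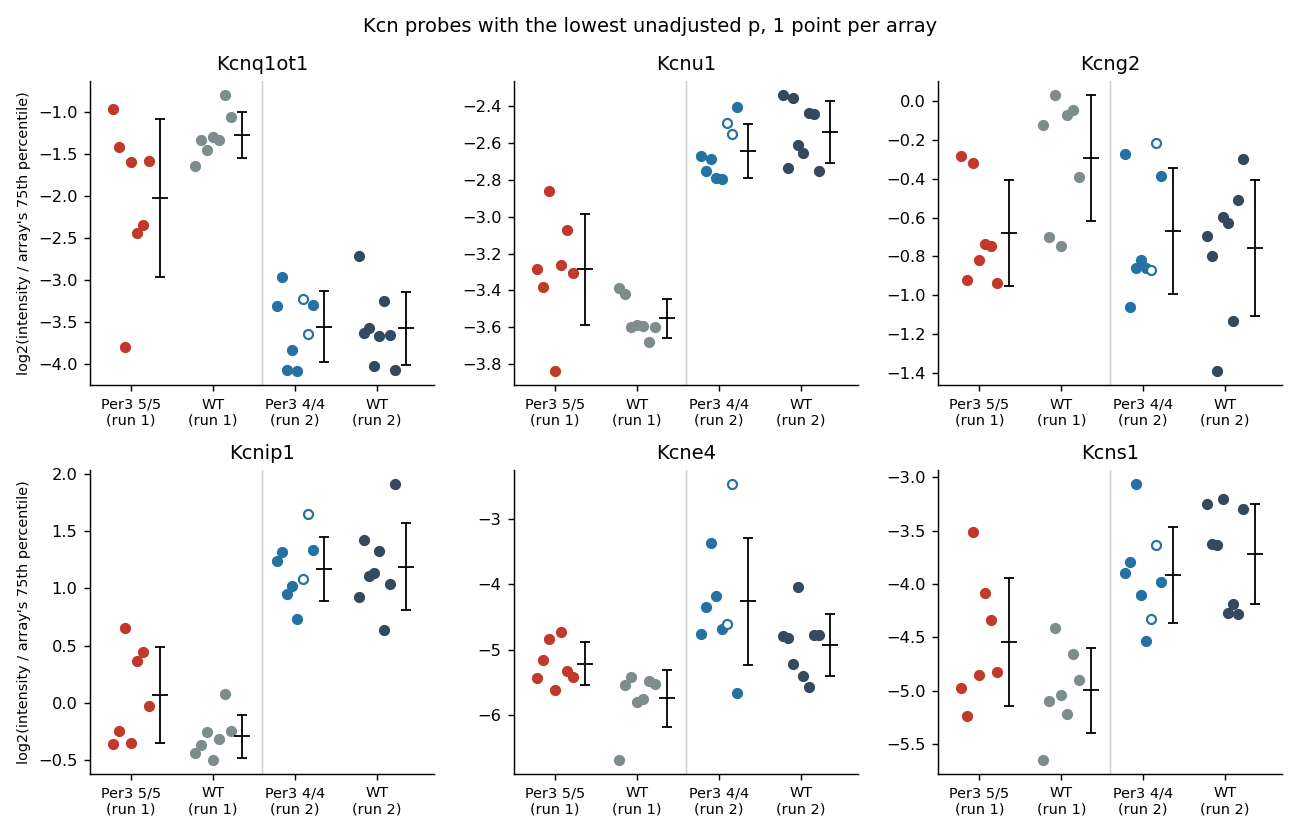
Levels (y axes, log2 of intensity over the array's 75th percentile) of the Kcnq1ot1, Kcnu1, Kcng2, Kcnip1, Kcne4 and Kcns1 probes on each array in 4 groups (x axes), with the mean ± SD beside each group and open circles for Coach 6 and 7. Knock-in and WT arrays overlapped in every panel, and the arrays of run 1 and run 2 lay at different levels in several.

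The Kcnq channels carry the M-current, which is closed by acetylcholine and brakes repetitive firing. In Per3 4/4 all 5 Kcnq probes lay below 0 (median -0.30), compared with 3 of 5 in Per3 5/5 (median -0.029). The lowest value in Per3 4/4 was -0.42 ± 0.26 (Kcnq5, p = 0.123; -0.16 with normexp background correction), with Kcnq3 at -0.067 ± 0.34 and Kcnq1 at -0.34 ± 0.20 (p = 0.104, limma, adjusted p = 1.00). The other Kcnq5 probe was at -0.30 ± 0.19 (p = 0.116) and at -0.10 without WT 10. Leaving out 1 array at a time left 3 to 5 of the 5 below 0, with 3 when Coach 5 or WT 15 was left out. Whether the Kcnq and other genes differed as a set was not tested.

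The ether-a-go-go (Kcnh) channels set resting excitability, and Kcnh3 is expressed mainly in the forebrain, that is, in cortex, hippocampus and striatum. The 2 Kcnh3 probes lie on chr15:99071628-99071687 and chr15:99072213-99072365 (mm9), the second across a splice junction. The second is shown in full because it gave the lowest value of the family in Per3 5/5 and was passed by the rank product, and no base is set in capitals.
Kcnh3: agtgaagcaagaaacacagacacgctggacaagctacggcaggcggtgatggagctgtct
Its level ranged from -5.59 to -3.49 in Per3 5/5 (median -4.92) and from -5.42 to -3.15 in WT of run 1 (median -3.82). In run 2 it ranged from -5.81 to -3.17 in Per3 4/4 (median -4.18) and from -5.48 to 0.16 in WT (median -4.17). The groups overlapped in both runs, and the highest WT array of run 2 was WT 10, the array with the high striatum sum, while the next was at -2.42. The probe was dim, with levels that overlapped those of Kcnk5 described later, so signal near background may limit its values.

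The log2 fold change of this probe was -0.82 ± 0.60 in Per3 5/5 (p = 0.187, limma, adjusted p = 0.855) and -0.63 ± 0.56 in Per3 4/4 (p = 0.272, limma, adjusted p = 1.00). Its pooled SD, 1.19, was the highest among the Kcn probes. Its false prediction value in the rank product was 0.00603 in Per3 5/5, and 0.00967 when each probe was centred on its run mean before the permutation, a setting chosen after seeing the data. With normexp background correction the Per3 5/5 value was -0.36, and with array weights the Per3 4/4 value was -0.13. Without WT 10 the Per3 4/4 value was -0.082. The other Kcnh3 probe, the first by position and also dim, gave -0.40 ± 0.39 and -0.41 ± 0.37, and the latter was -0.045 without WT 10. All 10 Kcnh probes lay below 0 in Per3 4/4 (median -0.15), and 8 to 10 did when 1 array was left out, the 8 without WT 10. The count below 0 was 5 of 10 in Per3 5/5.

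Levels of Kcnh3 and of the inward rectifier Kcnj4, another forebrain channel, were set beside the cortex and hippocampus marker sum. In run 1 the sums ranged from 22.4 to 66.3 times the 75th percentile over the 7 WT arrays, and Per3 5/5 arrays spanned 17.2 to 27.1, so the groups overlapped. WT 1, 3, 5 and 6 had sums of 31.3 or more and the Kcnh3 probe between -3.82 and -3.15. WT 2, 4 and 7 had sums within the Per3 5/5 range and this probe at -5.42, -4.86 and -3.85. Boxhill 3, with a sum of 27.1, had this probe at -3.49. In run 2 it was at 0.16 on WT 10 (sum 22.5), -3.39 on Coach 3 (18.1) and -3.17 on Coach 1 (17.5). WT 13 (17.1) and Coach 5 (14.4) had it at -5.48 and -5.81, the lowest levels of the run. All 6 cortex and hippocampus markers on the array lay below 0 in Per3 5/5 (median -0.52, 1 with an unadjusted p below 0.05). The part of forebrain tissue in the Kcnh3 and Kcnj4 values was not tested.

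**Figure D4:**
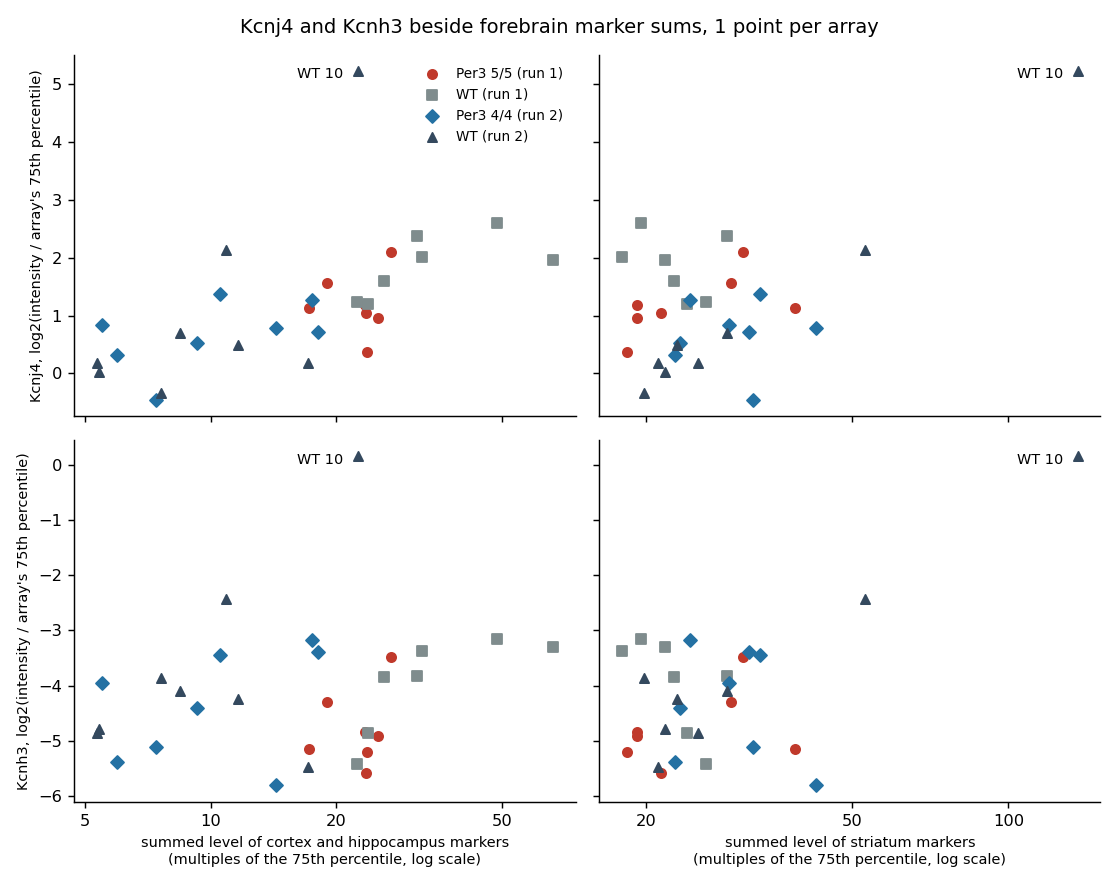
Levels of Kcnj4 (top) and Kcnh3 (bottom; y axes, log2 of intensity over the array's 75th percentile) against the summed level of cortex and hippocampus markers (left) and striatum markers (right), as multiples of the 75th percentile on log x axes. Each point is 1 array, and WT 10, at 136 for striatum, had the highest level of both genes.

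WT 10 also set the values of other channels. The genes in this paragraph were chosen after their values were seen. The 2 Kcnj4 probes were at 5.22 and 0.57 on WT 10, while the other WT arrays of run 2 reached 2.14 and -2.01. Kcnv1 and Kcnf1, silent subunits, were at -2.42 (others up to -4.39) and 2.42 (others up to 0.81), and Kcnb2 was at -1.17 (others up to -2.56). When WT 10 was left out, the Per3 4/4 changes of the Kcnj4 probes moved from -0.40 to 0.19 and from -0.47 to 0.027. Those of Kcnv1 and Kcnf1 moved from -0.31 to 0.073 and from -0.26 to 0.012, and that of Kcnip2 from -0.14 to 0.15. The count of Kcn probes below 0 was 68 with and without WT 10, and 1 probe had an unadjusted p below 0.05 in each case. Other single arrays moved that count, from 57 of 111 without Coach 5 to 72 without WT 13. It was 61 without WT 8 and 61 without WT 15.

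**Figure D5:**
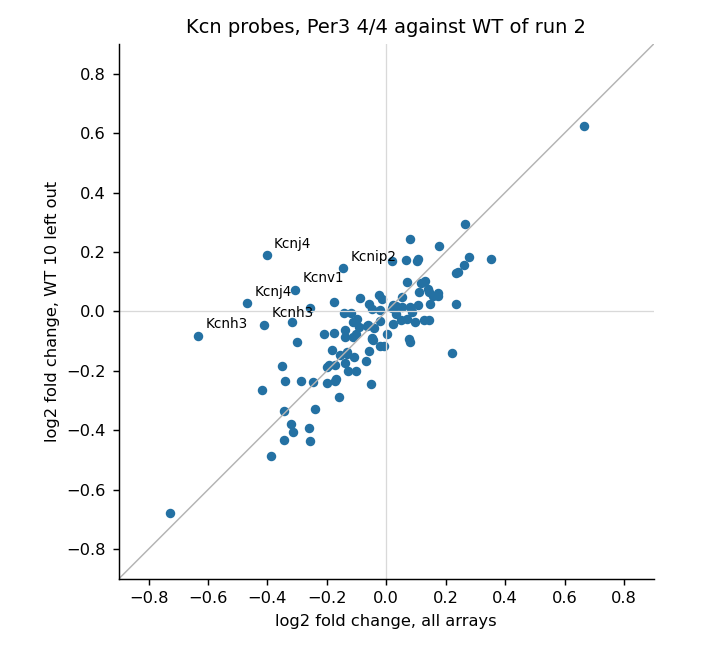
Log2 fold change of the 111 Kcn probes in Per3 4/4 with all arrays (x axis) and with WT 10 left out (y axis), 1 point per probe, with the line of equal values in grey. The Kcnj4, Kcnh3, Kcnv1 and Kcnip2 probes, which are named, lay farthest above the line.

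Calcium- and sodium-activated channels couple firing to recovery, and Kcnu1 was listed with them by gene family, not by what opens it. Of the 12 probes, 3 lay above 0 in Per3 5/5 and 5 in Per3 4/4. Kcnu1, a large-conductance channel best known from sperm, had the lowest p of this subfamily, and its probe lies across a splice junction on chr8:27042894-27044923 (mm9). The first 30 of its 60 bases are shown because it was the only Kcn probe with an unadjusted p below 0.05 for the difference between the effects.
Kcnu1: atcaggcattaatccaagaaaaacctttgg
Its level ranged from -3.84 to -2.86 in Per3 5/5 (median -3.29) and from -3.68 to -3.39 in WT (median -3.60), and from -2.79 to -2.40 in Per3 4/4 (median -2.68) and from -2.75 to -2.34 in WT of run 2 (median -2.53). In run 1 6 of 7 Per3 5/5 arrays lay above the WT mean, but the lowest Per3 5/5 array, Boxhill 4, lay below every WT array, so the groups overlapped.

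The log2 fold change of Kcnu1 was 0.27 ± 0.11 in Per3 5/5 (p = 0.0225, limma, adjusted p = 0.796), above 0 on all 4 slides, and -0.10 ± 0.10 in Per3 4/4. Without Boxhill 3 the Per3 5/5 value was 0.19 (p = 0.0763), and with normexp background correction it was 0.16. Kcnma1, the BK channel that shapes the daily firing rhythm of the clock, was at -0.10 ± 0.22 in Per3 5/5 and at 0.052 ± 0.21 in Per3 4/4. The SK channel Kcnn2, which opens on calcium entry and shapes thalamic sleep rhythms, gave -0.14 ± 0.21 and -0.082 ± 0.14 in Per3 5/5 over its 2 probes, and 0.18 ± 0.20 and 0.034 ± 0.13 in Per3 4/4. Kcnn4 had the lowest p of the subfamily in Per3 4/4, at -0.35 ± 0.22 (p = 0.124) and at -0.18 without WT 10.

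Inward rectifiers set the resting potential and, as the Kcnj3, Kcnj6 and Kcnj9 subunits of G protein-gated channels, answer to inhibitory transmitters. Of 18 probes, 8 lay above 0 in Per3 5/5 and 10 in Per3 4/4. Kcnj10, the astrocyte channel that clears potassium from the extracellular space, ranged from 4.61 to 5.46 in Per3 5/5 (median 5.28) and from 5.05 to 5.68 in WT (median 5.44). In run 2 it ranged from 4.59 to 5.20 in Per3 4/4 (median 4.94) and from 4.48 to 5.32 in WT (median 4.99). The groups overlapped, with 5 of 7 Per3 5/5 arrays below the WT mean. Its log2 fold change was -0.27 ± 0.14 in Per3 5/5 (p = 0.0757, limma, adjusted p = 0.796), below 0 on all 4 slides of run 1, and 0.023 ± 0.14 in Per3 4/4. With the slide as a block the Per3 5/5 value was -0.34 (p = 0.0178, limma, where 13.4% of all probes were below 0.05). With array weights it was -0.093. Beside this, 5 of 6 astrocyte markers lay below 0 in Per3 5/5 (median -0.21), and their summed level ranged from 103 to 143 in Per3 5/5 and from 119 to 163 in WT. The part of astrocyte content in the Kcnj10 value was not tested.

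The tandem-pore (Kcnk) channels, which carry background leak current, lay above 0 for 8 of 13 probes in Per3 5/5 and 5 of 13 in Per3 4/4. Kcnk5, an acid-sensitive leak channel, was dim, each of its 2 probes being well above background on 18 of 30 arrays. The probe that the rank product passed ranged from -7.40 to -4.36 in Per3 5/5 (median -6.20) and from -8.10 to -5.54 in WT of run 1 (median -6.79), where it was well above background on 3 of 7 and 0 of 7 arrays. The groups overlapped, with 4 of 7 Per3 5/5 arrays above the WT mean. Its fitted log2 change was 0.71 ± 0.41 (p = 0.0950, limma, adjusted p = 0.810), and most arrays behind it did not measure the probe well above background. Its false prediction value was 0.0108, and 0.0235 with the centred probes, which is above the limit. The other Kcnk5 probe was at 0.033 ± 0.46 in Per3 5/5, and without Boxhill 3 the first was at 0.48. Kcnk9, another leak channel of interest for sleep, had no probe by that name.

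Among the auxiliary subunits, the Kcnip proteins bind Shal channels and tune the A-type current. Kcnip1 ranged from -0.36 to 0.65 in Per3 5/5 (median -0.03) and from -0.50 to 0.07 in WT of run 1 (median -0.31). In run 2 it ranged from 0.74 to 1.65 in Per3 4/4 (median 1.16) and from 0.63 to 1.92 in WT (median 1.12). Of the Per3 5/5 arrays, 5 of 7 lay above the WT mean, and the groups overlapped. The log2 fold change was 0.36 ± 0.17 in Per3 5/5 (p = 0.0473, limma, adjusted p = 0.796) and -0.021 ± 0.16 in Per3 4/4. The Per3 5/5 value was above 0 on 3 of 4 slides. It was 0.44 with the slide as a block (unadjusted p = 0.00927, limma, where 13.4% of all probes were below 0.05). With array weights it was 0.21. Its unadjusted p stayed below 0.05 in 11 of the 30 fits that left out 1 array.

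The small Kcne subunits slow or silence their pore-forming partners. Kcne4, an inhibitory member, was the only Kcn probe with an unadjusted p below 0.05 in Per3 4/4, so the first 30 of its 60 bases, from chr1:78815838-78815897 (mm9), are shown.
Kcne4: gagaaagatgtgttgacttaaagacacagt
Its level ranged from -5.66 to -2.46 in Per3 4/4 (median -4.48) and from -5.57 to -4.04 in WT of run 2 (median -4.80), and from -5.61 to -4.73 in Per3 5/5 (median -5.32) and from -6.68 to -5.42 in WT of run 1 (median -5.54). In each knock-in 7 arrays lay above the WT mean, and the groups overlapped. The log2 fold change was 0.66 ± 0.30 in Per3 4/4 (p = 0.0324, limma, adjusted p = 1.00) and 0.53 ± 0.32 in Per3 5/5 (p = 0.106). The highest array was Coach 7, one of the pair that went against the male description. Without it the Per3 4/4 value was 0.41, and without Coach 6 and 7 it was 0.42 (p = 0.121). With normexp background correction it was 0.27. The Per3 5/5 value was 0.37 without WT 1. The Kcne4 probe was dim, with levels that overlapped those of Kcnk5. Among the 84 Kcn probes well above background on every array, 0 had an unadjusted p below 0.05 in Per3 4/4 (limma). The share of all such probes was 1.64%.

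The remaining auxiliary subunits gave no unadjusted p below 0.05. The Kcnab subunits, cytoplasmic partners of Shaker channels, lay below 0 for 3 of 4 probes in Per3 5/5 and for all 4 in Per3 4/4, between -0.32 (Kcnab3) and -0.026 (Kcnab1) in the latter. Of the Kcnmb subunits of the BK channel, Kcnmb1 was not well above background on any array of run 1, and Kcnmb4 and Kcnmb2 were at -0.053 and 0.018 in Per3 5/5. The 3 probes lay between -0.022 (Kcnmb2) and 0.22 (Kcnmb1) in Per3 4/4.

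Kcnq1ot1 is not a channel but a long non-coding RNA read from within Kcnq1, which silences neighbouring genes on the paternal chromosome. Of its 6 probes 4 were tested, and these are shown in full, in the order of their positions on chr7 (mm9), because they did not give the same change. They lie on chr7:150425115-150425174, chr7:150434523-150434582, chr7:150443564-150443623 and chr7:150463034-150463093.
Kcnq1ot1 first: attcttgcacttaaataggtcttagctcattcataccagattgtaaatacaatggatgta
Kcnq1ot1 second: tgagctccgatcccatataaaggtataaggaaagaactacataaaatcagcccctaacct
Kcnq1ot1 next: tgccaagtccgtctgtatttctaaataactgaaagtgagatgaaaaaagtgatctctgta
Kcnq1ot1 last: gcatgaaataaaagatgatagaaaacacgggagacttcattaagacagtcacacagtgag
The second of these had the lowest p of all Kcn probes in Per3 5/5. Its level ranged from -3.80 to -0.97 in Per3 5/5 (median -1.59) and from -1.64 to -0.79 in WT of run 1 (median -1.33). In run 2 it ranged from -4.09 to -2.96 in Per3 4/4 (median -3.48) and from -4.08 to -2.71 in WT (median -3.65). In run 1 3 Per3 5/5 arrays lay below every WT array, with Boxhill 3 the lowest, and the other 4 lay within the WT range.

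The log2 fold change of the second probe was -0.75 ± 0.29 in Per3 5/5 (p = 0.015, limma, adjusted p = 0.796) and 0.021 ± 0.27 in Per3 4/4. Without Boxhill 3 the Per3 5/5 value was -0.45 (p = 0.0610), the one of 30 such fits in which the unadjusted p was not below 0.05, and with array weights it was -0.37. It was below 0 on all 4 slides of run 1, lowest at -2.74 on the slide where Boxhill 3 was the only Per3 5/5 array. It was -0.91 with the slide as a block (unadjusted p = 0.00242, limma). In that block fit 0 Kcn probes passed the adjusted threshold, and 13.4% of all probes had an unadjusted p below 0.05. The other 3 probes gave -0.10 ± 0.42, -0.32 ± 0.32 and -0.067 ± 0.44 in Per3 5/5, so the probes lay up to 0.68 apart. The last probe was at -0.73 ± 0.41 in Per3 4/4 (p = 0.0878, limma, adjusted p = 1.00) and the first at 0.096 ± 0.39, which is 0.83 apart. The last probe ranged from -5.33 to -2.24 in Per3 4/4 (median -2.82) and from -3.75 to -1.67 in WT of run 2 (median -2.58). Its low values in Per3 4/4 came from 2 arrays, Coach 3 and Coach 5, at -5.33 and -5.21, and the value was -0.44 without Coach 3 and -0.16 with array weights. Kcnq1, the host gene, was at -0.029 ± 0.22 in Per3 5/5.

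The differences between the effects ran from -0.77 (Kcnq1ot1) to 0.86 (Kcnk5, not measured in WT of run 1), and the 6 probes of lowest p are given here. Kcnu1 differed by 0.37 ± 0.15 (p = 0.0215, limma, adjusted p = 1.00; Per3 5/5 effect minus Per3 4/4 effect), and the unadjusted p stayed below 0.05 in all 30 fits that left out 1 array. Kcng2 differed by -0.48 ± 0.23 (p = 0.0501), the second Kcnq1ot1 probe by -0.77 ± 0.40 (p = 0.0621) and Kcns1 by 0.65 ± 0.34 (p = 0.0663). Kcnt2, a sodium-activated channel, differed by -0.40 ± 0.25 (p = 0.117), and Kcnip1 by 0.38 ± 0.24 (p = 0.120). None of these passed the adjusted threshold. With array weights the differences of Kcnu1 and Kcnt2 were 0.22 and -0.17, with normexp background correction that of Kcns1 was 0.23, and without the 2 dimmest arrays that of Kcnip1 was 0.22.

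Different probes of a gene often disagreed. Of the 25 Kcn genes with more than 1 tested probe, 12 had all probes on the same side of 0 in Per3 5/5 and 17 in Per3 4/4, and the median gap between the lowest and highest probe was 0.23 and 0.12. Apart from Kcnq1ot1, the widest gaps were found for Kcnk5 (0.67) and Kcne3 (0.63), both not well above background in WT of run 1 for 1 probe or more, in Per3 5/5 and for Kcnk7 (0.53) and Kcnk5 (0.51) in Per3 4/4. Of the 80 tested genes, 6 neighbouring pairs lay within 200 kb of each other, Kcna3 and Kcna2 among them at 67.8 kb. In that pair the changes were 0.46 and -0.095 in Per3 5/5 and 0.077 and -0.13 in Per3 4/4.

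Other genes of potassium handling gave no adjusted p below 0.05 in any comparison by limma. Of 29 probes for partner proteins of potassium channels, such as the scaffolds and adhesion molecules that cluster them, 3 had an unadjusted p below 0.05 in Per3 5/5, all 3 below 0, compared with 6.17% of all probes, and 0 did in Per3 4/4, compared with 1.73%. These were Cntn2, an adhesion molecule that gathers Kcna2 beside the node of Ranvier, at -0.67 ± 0.21 (p = 0.00405, limma, adjusted p = 0.796), Lgi1 at -0.73 ± 0.27 and the scaffold Dlg2 at -0.81 ± 0.37. The same probes were at -0.017, 0.17 and -0.25 in Per3 4/4. Each of the genes had other tested probes, which in Per3 5/5 gave -0.030 and -0.35 for Cntn2, 0.085 and -0.00096 for Lgi1, and -0.32 and -0.26 for Dlg2. The HCN channels (8 probes), the sodium-potassium pump (10 probes) and the chloride cotransporters Slc12a2 and Slc12a5 gave 0 unadjusted p below 0.05 in both knock-ins.

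Markers of the other cells and regions that a hypothalamic block can hold also gave no adjusted p below 0.05 (limma). Thalamus markers lay above 0 for 7 of 7 genes in Per3 5/5 (median 0.26) and 6 of 7 in Per3 4/4 (median 0.46). Choroid plexus markers lay below 0 for all 7 tested genes in Per3 5/5 (median -0.77) and above 0 for 6 of 7 in Per3 4/4 (median 0.99). Striatum markers lay below 0 for all 7 in Per3 4/4 (median -0.32), and hypothalamic neuron markers above 0 for 11 of 14 in each knock-in. The Per3 4/4 fold changes include WT 10, whose striatum, hypothalamic neuron and thalamus sums were 136, 54.3 and 11.5. The medians of these sums over arrays were 30.2, 279 and 67.7 in Per3 4/4. In WT of run 2 they were 24.1, 306 and 67.0, so the medians did not show lower striatum or higher hypothalamic neuron sums in Per3 4/4. Medians of the oligodendrocyte, microglia, endothelium and blood lists lay between -0.31 and 0.058, and that of anterior pituitary was 0.53 in Per3 5/5 and -0.18 in Per3 4/4. The part of tissue make-up in the Kcn values was not tested.

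A few arrays supplied many of the extremes, among the 111 Kcn probes and among all probes alike. Boxhill 3 was the highest or lowest of its group for 53.2% of Kcn probes (53.2% of all probes) and WT 1 for 52.3% (58.9%), compared with an equal share of 28.6% for a group of 7. In run 2 Coach 5 did so for 58.6% (52.6% of all), Coach 7 for 52.3% (46.4%), WT 10 for 48.2% (37.2%) and WT 15 for 47.3% (50.2%), compared with an equal share of 25% for a group of 8.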

How the data were processed

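Hypothalamic RNA of 30 mice was measured on single-colour Agilent arrays. The authors deposited scanner intensities, background-subtracted by Feature Extraction with nothing done between arrays, and a table of log2 values shifted, per the methods, to the 75th percentile. That deposited log2 table was also centred on each probe's median within each run, and in run 1 1 of 14 of its columns matched its own scanner file best, while all 14 matched a file of their own group. It was used only as an alternative. Intensities (gProcessedSignal) without control and outlier spots were put on the log2 scale and set relative to each array's 75th percentile, and repeated spots were averaged per probe. Genotype and run were fitted with limma 3.58.1 (R 4.3.3) over 30 arrays, with Benjamini-Hochberg adjustment over 29953 probes. Other steps used Python 3.11.15, numpy 2.4.6, pandas 2.3.3, scipy 1.17.1 and matplotlib 3.10.9. Normexp took median signals, since run 2 holds no means. The test was checked on simulated data.

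The members and gene lists were chosen with earlier results of these data known. Named genes were Kcna2, the 6 probes of lowest p in each comparison, sleep and clock genes, the ends of each subfamily's range and genes whose probes disagreed; some genes under this rule are not reported here. Probe positions are those of the files' own annotation (mm9), and symbols of 118 of 128 probes matched RefSeq by transcript. No column belonged to another series (0 such columns). The number of arrays limits the precision. The rank product used 100 permutations of values within arrays. Alternatives covered arrays left out, slide and replicate blocks, background correction, normalization, filters, weights and tests.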

Additional observations from a re-analysis of the deposited data

Results flagged for a closer look

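Among the named Kcn probes, 13 of 120 groups of arrays (10.8%) held 1 array whose gap to the nearest other was large for the range of its group. The limit is passed by about 1 in 20 groups of normally distributed values, and the share over all probes was not computed. Of all probes, WT 1 was the highest or lowest of its group for 58.9% and Boxhill 3 for 53.2%. The values that follow are log2 levels relative to the array's 75th percentile. WT 1 stood apart 3 times, lowest for Kcna2 at 0.13 (next 1.29), lowest for Kcne4 at -6.68 (next -5.79) and highest for a Kcnd2 probe at 4.05 (next 3.67). WT 8 was highest for Kcna2 at 0.80 (next -0.39). Boxhill 6 was lowest for Kcna1 at 3.41 (next 4.13) and for a Kcnc2 probe at -2.28 (next -1.70). Boxhill 3 was highest for a Kcnc1 probe at 1.92 (next 1.25) and for a Kcnq5 probe at -2.51 (next -3.17), and WT 10 was highest for that Kcnq5 probe in run 2 at -0.86 (next -2.17). For the other Kcnq5 probe WT 4 was lowest at -6.97 (next -6.11). Coach 1 was highest for a Kcnh3 probe at -4.87 (next -5.71). For Kcnma1, Coach 5 was lowest at -1.89 (next -0.68) and WT 15 highest at 0.52 (next -0.51), and these were the 2 dimmest arrays.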

How the results depend on the processing

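The count of Kcn probes past the adjusted threshold was 0 under each alternative and with each array left out, apart from the rank product. In Per3 5/5 the rank product passed 2 Kcn probes, compared with 1.13% of all probes. It passed 1 when probes were centred on their run mean before the permutation, compared with 0.832% of all probes. The centring was added after seeing the data and changes only the permuted values. The count at an unadjusted p below 0.05 was less stable: 3 to 14 in Per3 5/5 (1 without Boxhill 3), 0 to 3 in Per3 4/4 (5 without WT 13) and 1 to 6 for the difference. The share of all probes moved as well. Over the alternatives other than single arrays left out, it ran from 5.16% to 13.4% in Per3 5/5 and from 0.751% to 6.03% in Per3 4/4. For the difference it ran from 1.94% to 10.4%. The Kcna2 change turned sign in Per3 5/5 with array weights (0.0066), and in Per3 4/4 (0.0011) and the difference (-0.096) without Coach 6 and 7, and in the difference with slide as a fixed block (-0.021). With 1 array left out it ran from -0.30 to 0.014 in Per3 5/5, from -0.22 to 0.049 in Per3 4/4 and from -0.16 to 0.15 for the difference. The causes were not tested.

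For the other named probes 19 of 760 values turned sign, all of changes of 0.18 or less in size. In Per3 5/5 these were Kcna1 with slide as a random (0.0061) or fixed block (0.016), the percentile over detected probes (0.0027) and the authors' table (0.0026), Kcnd1 with quantile normalization (0.00019), and, with array weights, Kcnd1 (0.057) and Kcnma1 (0.014). In Per3 4/4, leaving out Coach 6 and 7 turned Kcna1 (0.11), Kcna3 (-0.20) and Kcnma1 (-0.076). Leaving out the 2 dimmest arrays turned Kcnc1 (0.19, 0.13 and -0.044), Kcnd2 (-0.081), Kcnj10 (-0.0035) and Kcnn2 (-0.044). Normexp turned Kcnd1 (-0.042), and array weights turned Kcnc1 (0.090 and 0.043). With 1 array left out, 34 of 1530 values turned sign, in 12 results. Their ranges in Per3 5/5 were -0.14 to 0.13 (Kcna1) and -0.39 to 0.23 (Kcnd1). In Per3 4/4 they were -0.24 to 0.12 (Kcna1), -0.12 to 0.32 (Kcna3), -0.35 to 0.020 and -0.15 to 0.061 (Kcnc1), -0.030 to 0.33 (Kcnc2), -0.095 to 0.38 (Kcnd1), -0.070 to 0.22 (Kcnd2), -0.041 to 0.079 (Kcnj10), -0.039 to 0.24 (Kcnma1) and -0.028 to 0.10 (Kcnn2).

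Replicate numbers did not pair the arrays of run 1: correlations of same-numbered arrays ran from -0.28 to 0.40, with 2 of 7 over 0.1, and 1 array of 7 correlated best with its own number. With the replicate number as a block the Kcna2 change was -0.095 and 0 Kcn probes passed the adjusted threshold. In that fit 14 of 111 Kcn probes had an unadjusted p below 0.05, compared with 11.6% of all probes. No paired analysis was possible for Per3 4/4 because it shares only number 8 with the WT arrays of its run. Signal over background limits dim probes: those of Kcnk5 were well above it on 18 of 30 arrays, with standard errors of 0.38 to 0.46. The Kcnh3 and Kcne4 probes had levels that overlapped those of Kcnk5.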
